A study of Mus musculus with 10 samples.

Results

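Mdm1, Asb9, Cdk18, Noct, Tdh, Fcgbp, Il9r and Tox2 are 8 of the 56262 genes in a count table of mouse pancreatic islets. They were picked because their level differed between libraries labelled SIRT6 transgenic and control libraries in 1 direction at both 10 and 16 months of age. That choice was made on these counts, so each genotype difference of the 8 genes is given as a description, with no test. The comparison of the ages, averaged over the genotypes, was not a criterion of the choice and is tested. It shares its estimate of the spread within groups with the genotype comparisons, so it is not wholly free of the choice. All 8 genes were among the 19218 genes that passed the filter on low counts.

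Islets were freshly isolated, without culture or treatment, and bulk mRNA was sequenced with a strand-marking kit. The 10 libraries form 4 groups, with 2 wild-type control and 2 SIRT6 transgenic libraries at 10 months and 3 of each at 16 months. The promoter, species and expressing cell type of the transgene, the strain and sex of the mice, and whether each library is a separate animal are not given in the sources used here. Each p-value therefore measures the spread between these libraries, which may be technical. By their labels the 10-month libraries are batch 1st and the 16-month libraries batch 2nd; in a comparison of the ages, batch is therefore the same split as age, and they cannot be told apart.

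SIRT6 is a NAD+-dependent deacylase of the nucleus that acts on histones and is known for roles in genome maintenance, metabolism and ageing. Pancreatic islets consist mainly of insulin-secreting beta cells together with alpha, delta and PP cells, and isolated islets can carry exocrine acinar cells and infiltrating immune cells. The 8 genes belong to no single pathway. Mdm1 is a microtubule-binding protein of centrioles, Asb9 a substrate receptor of Cullin-5 ubiquitin ligases, Cdk18 a PCTAIRE-family kinase, Noct (nocturnin) an enzyme known for strong daily rhythms, and Tdh the mitochondrial L-threonine dehydrogenase. Fcgbp is a secreted, mucin-associated protein best known from goblet cells, Il9r the specific chain of the interleukin-9 receptor, and Tox2 an HMG-box factor known from follicular helper T cells and natural killer cells.

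Total counts ran from 32533177 to 92529221 per library. Sirt6 itself did not separate the labels: its level in CPM (counts scaled to a common library size) ran from 9.85 to 11.9 (control) and from 10.2 to 10.6 (labelled transgenic) at 10 months, and from 6.92 to 7.71 and 6.42 to 8.03 at 16 months. Its averaged log2 fold change was -0.03 (SE 0.11, edgeR adjusted p = 0.941). Whether reads of the transgene would count at the mouse gene is not given, so the counts do not check the labels, and the groups are named here as labelled. The 15 beta cell markers of a fixed list had a mean of 9.67 to 10.1 log2 CPM in all 10 libraries. For Ins1 the averaged genotype difference was -0.28 (SE 0.19, edgeR adjusted p = 0.684) and for Ins2 0.46 (SE 0.25, 0.659).

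Across all genes, edgeR's quasi-likelihood test with Benjamini-Hochberg adjustment called 0 of 19218 genes between the genotypes at 10 months, at 16 months or averaged (0% each), with 1189, 2150 and 1385 genes at an unadjusted p under 0.05. DESeq2 called 21, 879 and 43 genes and limma-voom 0, 222 and 0. With the replicate number as a block at both ages, edgeR called 288 genes at 16 months, 284 of them lower in the labelled transgenic group. Fcgbp and Il9r are among these 288, on the contrast that they were chosen on. The averaged contrast placed all 8 genes among the 17 with the smallest p, Mdm1 first, Asb9 second and Tdh last. The genes were chosen on their genotype difference, so nothing is read from these ranks. The other 9 genes down to Tdh, named after their values were seen, were 5 immunoglobulin variable segments and Il1rn, Egr3, Gm19522 and Tph2, and each was lower in the labelled transgenic groups at both ages.

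Start regions of 7 of the 8 genes were available from RefSeq (GRCm38.p6) as 11 windows of 300 bases, 250 before to 50 after a start. Tdh had no entry. The following pair is shown because Cdk18 was the only one of the 8 genes with a CACGTG, the E-box bound by the clock factors CLOCK and BMAL1, and Noct, the gene of the set known for daily rhythms, had none; capitals mark the CACGTG, and both strands were searched.
Cdk18: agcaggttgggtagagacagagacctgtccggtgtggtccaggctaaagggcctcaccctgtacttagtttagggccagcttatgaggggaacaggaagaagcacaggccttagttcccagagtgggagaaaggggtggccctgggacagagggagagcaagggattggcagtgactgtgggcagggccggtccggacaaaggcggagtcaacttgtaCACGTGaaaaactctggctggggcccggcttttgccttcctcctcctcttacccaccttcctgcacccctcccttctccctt
Noct: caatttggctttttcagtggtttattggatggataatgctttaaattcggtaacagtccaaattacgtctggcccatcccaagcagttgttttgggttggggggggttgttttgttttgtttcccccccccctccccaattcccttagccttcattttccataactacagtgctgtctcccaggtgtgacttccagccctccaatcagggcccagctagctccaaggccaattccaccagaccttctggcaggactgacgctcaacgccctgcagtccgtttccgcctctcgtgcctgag
The Cdk18 window lies at chr1:132139636-132139935 on the minus strand, with the motif's first base 32 bases before the start (position -32), and the Noct window at chr3:51224197-51224496 on the plus strand. Of all 32851 windows in the table, 7.15% held CACGTG. The core of the HIF1 response element, ACGTG, which lies inside the E-box, was found in the same Cdk18 window only and in 19.6% of all windows. None of the 11 windows held GTAAACA (forkhead, 3.65% of all windows) or TGACGTCA (cyclic AMP response element, 1.79%). TATAAA occurred in a pair of Tox2 windows that start 1 base apart (13.6% of all windows), and a loose NF-kB pattern (3 G, any 5 bases, 2 C) in 9 of the 11 (50.8%). Of the 11 windows 5 belong to Tox2, some of them overlapping, and all 5 held the loose pattern. The windows of Il9r and Asb9 did not hold it. The Asb9 window (chrX:164497653-164497952) lies wholly before the start of the counted Asb9 gene at 164506327, so it does not describe that start. A match here is a description of letters, not of binding.

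**Figure D1:**
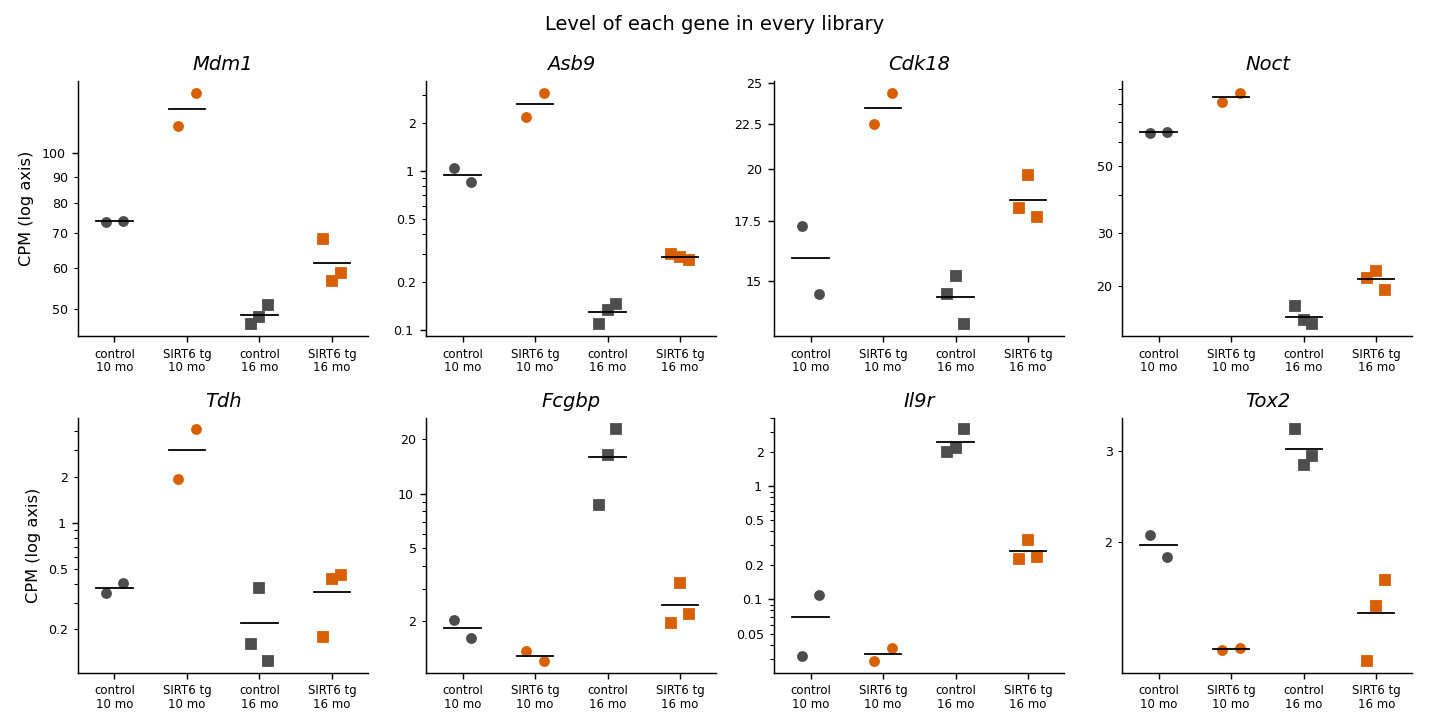
CPM of each of the 8 genes (log axis) in every library, by group: grey, control; orange, labelled SIRT6 transgenic; circles, 10 months; squares, 16 months; bars, group means. Mdm1, Asb9, Cdk18, Noct, Fcgbp and Tox2 separate the genotypes at both ages; Il9r does not at 10 months and Tdh does not at 16 months.

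Mdm1 (chr10:118141811-118168997, plus strand), a negative regulator of centriole duplication, had the highest level per exon length of the set. All gene coordinates are those of GENCODE on GRCm38. At 10 months it stood at 73.6 and 74.0 CPM in the control and 113 and 131 CPM in the labelled transgenic libraries. At 16 months the control libraries had 46.6, 48.2 and 50.7 CPM and the labelled transgenic libraries 68.3, 56.6 and 58.5 CPM. Every labelled transgenic library lay above every control library of its age, and the lowest 10-month library lay above the highest at 16 months. The genotype ratio was 1.65 at 10 months (log2 fold change 0.73, SE 0.13) and 1.26 at 16 months (0.33, SE 0.11). Averaged over the genotypes, Mdm1 fell by 0.80 on the log2 scale from 10 to 16 months (SE 0.084, edgeR adjusted p = 0.000114).

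The centriole assembly list, chosen as the surroundings of Mdm1, went the other way with age. Of its 16 genes, all tested, 11 rose and 0 fell at 16 months, with a median log2 fold change of 0.80 against 0.033 for all genes tested. The proliferation list moved with it, as all 15 of its tested genes rose (median 2.5), and the part of dividing cells in the rise of the centriole list was not tested. Sass6, the cartwheel protein that starts a new centriole, rose by 1.21 (SE 0.17, edgeR adjusted p = 0.000655), and Cep135, which joins the cartwheel to the centriole wall, by 1.08 (SE 0.19, 0.00189). Between genotypes none of the 16 passed the test, and the medians were -0.27 at 10 months and -0.03 at 16 months. The smallest p among them belonged to the centriole elongation genes Cep120 (-0.44 at 10 months, -0.03 at 16 months) and Cep295 (-0.65 and -0.10), both below 0 where Mdm1 was above it.

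Asb9 (chrX:164506327-164539752, plus strand) recruits substrates such as brain-type creatine kinase to the Cullin-5 ligase. The 10-month control libraries had 1.04 and 0.847 CPM and the labelled transgenic libraries 2.17 and 3.11 CPM. At 16 months the control libraries had 0.108, 0.133 and 0.145 CPM, and the labelled transgenic libraries 0.301, 0.286 and 0.276 CPM. The genotypes did not overlap at either age, although at 16 months the control values rested on 5 to 7 counts per library and the labelled transgenic values on 12 to 17. The fitted genotype ratio was 2.81 at 10 months (log2 fold change 1.49, SE 0.32) and 2.23 at 16 months (1.16, SE 0.32). With age Asb9 fell by 3.02 on the log2 scale (SE 0.22, edgeR adjusted p = 1.31e-05), an 8.10-fold lower level at 16 months, and the ages did not overlap.

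The genes before Asb9 on the X chromosome were also higher in the labelled transgenic libraries at 10 months. Asb11, a related substrate receptor that ends 47157 bp before Asb9 and lies on the same strand, had 11.5 and 6.97 CPM in the control and 18.6 and 31.3 CPM in the labelled transgenic libraries at 10 months. At 16 months its libraries overlapped, from 6.12 up to 9.10 CPM (control) and from 7.08 up to 11.8 CPM (labelled transgenic). The log2 fold changes were 1.44 (SE 0.35) and 0.37 (SE 0.28), and neither passed the test (edgeR adjusted p = 0.701 and 0.764). Piga, the next gene out, which acts in the first step of GPI anchor synthesis, was named after its values were seen. It had 20.8 and 23.3 against 29.7 and 27.3 CPM at 10 months, and 6.40 to 7.16 against 8.14 to 9.58 CPM at 16 months, with no overlap at either age (0.37, SE 0.14, and 0.42, SE 0.11; edgeR adjusted p = 0.701 and 0.127). Mospd2, the nearest tested gene on the far side, had -0.14 (SE 0.20) and 0.08 (SE 0.16). Fancb, the next gene out on that side, was also named after its values were seen. It had 0.728 and 0.608 against 1.17 and 0.825 CPM at 10 months (0.60, SE 0.36) and -0.12 (SE 0.29) at 16 months. Of all genes tested, 33.3% had genotypes apart at 10 months, and 2.33% in 1 direction at both ages.

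Among the ASB family, Cullin-5 subunits and Asb9 substrates, 18 of 23 listed genes were tested and none passed between genotypes, with medians of 0.09 at 10 months and 0.10 at 16 months. Ckb, the brain-type creatine kinase, had log2 fold changes of 0.39 (SE 0.22) and 0.44 (SE 0.18), which did not pass the test (averaged edgeR adjusted p = 0.659). With age 2 of the 18 rose and 6 fell. Asb2, known from hematopoietic and muscle cells, rose by 2.05 (SE 0.37, edgeR adjusted p = 0.00245), and Eloc, the elongin C adaptor of the ligase, fell by 0.47 on the log2 scale (SE 0.085, 0.00228).

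Cdk18 (chr1:132112237-132139684, minus strand) is a cyclin-dependent kinase of the PCTAIRE group. It had 17.3 and 14.5 CPM in the control and 22.5 and 24.4 CPM in the labelled transgenic libraries at 10 months. At 16 months the values were 14.5, 15.2 and 13.4 CPM in the control and 18.1, 19.7 and 17.7 CPM in the labelled transgenic libraries. All 5 labelled transgenic libraries lay above all 5 control libraries, whatever the age. The log2 fold change was 0.56 (SE 0.14) at 10 months and 0.36 (SE 0.11) at 16 months. Its age difference of -0.24 (SE 0.089) did not pass the test (edgeR adjusted p = 0.0557) and was 0.0045 (adjusted p = 0.976) when libraries were scaled by total count, a scaling that moved the median age difference of all genes from 0.033 to 0.28.

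None of the 9 related kinases and cyclin Y genes passed the test between genotypes, with medians of -0.11 at 10 months and 0.18 at 16 months. Of the closest relatives, Cdk17 lay below 0 at both ages, with -0.30 (SE 0.21) and -0.39 (SE 0.17). Cdk16 had -0.03 (SE 0.11) at 10 months and 0.29 (SE 0.090) at 16 months, where Cdk18 had 0.36 (SE 0.11). At 16 months the Cdk16 libraries did not overlap, at 81.3, 81.5 and 83.6 CPM (control) and 98, 100 and 104 CPM (labelled transgenic). Genotypes were apart at that age for 17.8% of all genes. With age 1 of the 9 changed, Cdk14, a kinase that works with cyclin Y, which rose by 0.38 (SE 0.13, edgeR adjusted p = 0.0420).

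Noct (chr3:51224447-51251644, plus strand) encodes nocturnin, a CCR4-related enzyme described as an mRNA deadenylase and as a phosphatase of NADP(H). It had 64.5 and 64.9 CPM in the control and 81.1 and 87.4 CPM in the labelled transgenic libraries at 10 months. By 16 months it stood at 17.2, 15.5 and 15.0 CPM in the control and 21.4, 22.5 and 19.4 CPM in the labelled transgenic libraries. The genotypes were apart at both ages, and the age groups lay far outside each other's range. The ratio between genotypes was 1.30 and 1.32 (log2 fold changes 0.38, SE 0.12, and 0.41, SE 0.10), so the difference between the ages in this genotype effect was 0.03 (SE 0.16). Noct fell by 2.01 on the log2 scale with age (SE 0.078, edgeR adjusted p = 2.64e-07), by 2.02 within the control and 2.00 within the labelled transgenic libraries.

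The circadian clock list fell with Noct at 16 months. Of 21 genes, all tested, 14 fell and 3 rose, with a median of -1.07 against 0.033 for all genes. Ciart, a repressor of the clock, fell by 3.13 on the log2 scale (SE 0.13, edgeR adjusted p = 4.57e-07), and Cry2, a core repressor, by 2.26 (SE 0.094, 3.74e-07). Among those that rose, named after their values were seen, were Arntl, which encodes the activator BMAL1 (0.71, SE 0.17, edgeR adjusted p = 0.0104), and Npas2, which encodes a partner of BMAL1 (0.93, SE 0.23, 0.0115). Time of day of islet isolation is not given in the sources used here, and its part in the age difference was not tested.

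**Figure D2:**
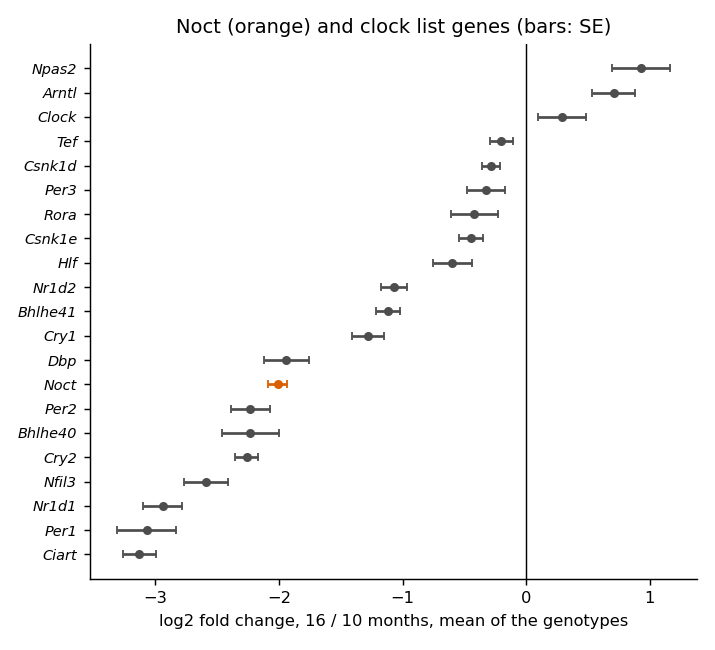
Log2 fold change between 16 and 10 months, averaged over the genotypes, of Noct (orange) and 20 genes of the clock list (grey), with SE as bars. Noct, at -2.01, lies among the repressors and output genes on the left, while Arntl and Npas2 lie right of 0.

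Between genotypes the clock list did not share the direction of Noct: 0 of 21 passed the test, and the medians were -0.16 at 10 months and 0.01 at 16 months. Hlf and Tef, PAR-bZIP output genes of the clock, had the smallest p, with -0.46 (SE 0.25) and -0.23 (SE 0.15) at 10 months and -0.11 (SE 0.20) and -0.08 (SE 0.12) at 16 months. Of the 14 deadenylases and relatives of Noct, none passed between genotypes (medians -0.17 and 0.00). With age 2 of them rose and 2 fell. Pde12, a mitochondrial deadenylase, fell by 1.45 on the log2 scale (SE 0.19, edgeR adjusted p = 0.000385) and Toe1, a nuclear one, by 0.59 (SE 0.093, 0.00116). The CCR4-NOT subunits Cnot6l and Cnot6 had -0.54 (SE 0.26) and -0.40 (SE 0.27) at 10 months and -0.06 (SE 0.21) and -0.08 (SE 0.22) at 16 months between genotypes.

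Tdh (chr14:63492347-63509092, minus strand) catalyses the first step of threonine breakdown to glycine and acetyl-CoA. It had 0.348 and 0.402 CPM in the control and 1.95 and 4.13 CPM in the labelled transgenic libraries at 10 months. The 16-month values were 0.161, 0.373 and 0.124 CPM in the control and 0.177, 0.430 and 0.454 CPM in the labelled transgenic libraries, from 6 to 23 counts each. Genotypes were apart at 10 months and overlapped at 16 months, so only the sign was shared. The ratio was 7.94 at 10 months (log2 fold change 2.99, SE 0.60) and 1.64 at 16 months (0.71, SE 0.53), a difference of -2.28 (SE 0.80). Averaged over the genotypes, Tdh fell by 1.96 on the log2 scale with age (SE 0.39, edgeR adjusted p = 0.00367), by 0.83 (SE 0.58) within the control and 3.10 (SE 0.52) within the labelled transgenic libraries.

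Acinar markers moved with Tdh. All 20 listed acinar genes had counts in every library, and none passed the test between genotypes. Their share of counts at 10 months ran from 2.42 to 4.85% (control) and from 10.9 to 13.1% (labelled transgenic), and at 16 months from 2.56 to 9.44% (control) and from 2.31 to 6.78% (labelled transgenic). In bulk tissue, fewer cells of a type and less RNA per cell cannot be told apart. After removal of the age means, Tdh followed the acinar mean over the 10 libraries with Pearson's r of 0.90. This is a description in which points share library, depth and genotype differences. The same r was 0.72 for Cdk18, 0.60 for Asb9, 0.53 for Mdm1 and 0.43 for Noct. At 10 months the acinar mean was itself apart between the genotypes, at 8.06 to 8.95 (control) and 10.3 to 10.8 log2 CPM (labelled transgenic). A fit with that mean as a covariate therefore cannot tell acinar content from genotype at that age. With the acinar mean as a covariate the 10-month log2 fold change of Tdh was 1.30 (SE 0.65) in place of 2.99. The averaged one was 0.95 in place of 1.85. Under it the 10-month value of Cdk18 was 0.39 (SE 0.20) in place of 0.56, and that of Asb9 1.34 (SE 0.54) in place of 1.49. For Mdm1 it was 0.84 (SE 0.20) in place of 0.73, and for Noct 0.41 (SE 0.19) in place of 0.38. With the mean of a lymphocyte marker list as a covariate, the 16-month value of Tdh was 1.61 in place of 0.71. The lymphocyte mean was in turn apart between the genotypes at 16 months. The part of acinar and other cell types in the differences of these genes was not tested.

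Of 16 genes of threonine, glycine and one-carbon metabolism, 15 were tested and none passed between genotypes, with medians of 0.25 at 10 months and 0.06 at 16 months. Gcat, which takes the product of Tdh on to glycine, had 3.45 and 3.20 against 4.23 and 7.92 CPM at 10 months (log2 fold change 0.87, SE 0.34) and 0.31 (SE 0.28) at 16 months. Amt, of the glycine cleavage system, had 0.25 (SE 0.19) and 0.36 (SE 0.16). With age 1 of the 15 rose and 6 fell. Gldc, the glycine decarboxylase of the same system, fell by 2.7 on the log2 scale (SE 0.25, edgeR adjusted p = 5.08e-05), and Mthfd2, a mitochondrial folate enzyme, by 0.98 (SE 0.10, 0.000118).

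Fcgbp (chr7:28071236-28120862, plus strand) was the first of 3 genes that were lower in the labelled transgenic libraries. It had 2.03 and 1.61 CPM in the control and 1.37 and 1.20 CPM in the labelled transgenic libraries at 10 months. At 16 months it stood at 8.67, 16.4 and 22.6 CPM in the control and 1.95, 3.22 and 2.17 CPM in the labelled transgenic libraries. The genotypes were apart at both ages, narrowly at 10 months and widely at 16 months. The log2 fold change was -0.48 (SE 0.44) at 10 months and -2.7 (SE 0.34) at 16 months, a 6.51-fold higher level in the older control, and these genotype differences themselves differed by -2.22 (SE 0.55). Averaged over the genotypes, Fcgbp rose by 2.03 with age (SE 0.29, edgeR adjusted p = 0.00069), by 3.14 (SE 0.42) within the control and 0.92 (SE 0.40) within the labelled transgenic libraries.

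Of a list of goblet and mucous cell genes, Muc2, Muc5ac, Muc5b and Tff1 did not pass the filter on low counts. The 7 goblet and mucous genes that were tested had median genotype differences of 1.53 at 10 months and -0.60 at 16 months, and none passed the test between genotypes or between ages. Named after their values were seen, Tff3, a goblet cell trefoil factor, and Clca1, a secreted goblet cell protein, were low in the labelled transgenic libraries at 16 months, where Fcgbp was low too. Tff3 had 0.394, 4.10 and 4.58 CPM in the control and 0.124, 0.239 and 0.0197 CPM in the labelled transgenic libraries (log2 fold change -4.58, SE 0.95, edgeR adjusted p = 0.0781). Clca1 had 0, 4.07 and 4.21 CPM in the control and 0 in every other library. Control replicate 1 of 16 months, with no Clca1, had 8.67 CPM of Fcgbp. Of the rest of the list at 16 months, Agr2 had -1.3 (SE 0.50), Muc6 -0.60 (SE 1.51) and Spdef -0.15 (SE 0.50). Tff2 and Zg16 had -0.05 (SE 0.62) and 0.08 (SE 0.58), after 2.02 (SE 0.79) and 2.21 (SE 0.75) at 10 months. The acinar list had medians of 2.02 at 10 months and 0.04 at 16 months. Both genes lay near these, so the goblet and mucous medians do not stand for mucous cells alone. The part of mucous cells in the Fcgbp difference was not tested.

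Il9r (chr11:32187541-32200279, minus strand) binds interleukin-9 and signals with the common gamma chain through JAK kinases and STAT factors. At 10 months it was at the edge of detection, with 1 and 10 counts (0.0317 and 0.109 CPM) in the control and 1 and 1 count (0.0286 and 0.0375 CPM) in the labelled transgenic libraries. The control libraries of 16 months had 2.01, 2.16 and 3.19 CPM and the labelled transgenic ones 0.230, 0.334 and 0.237 CPM. The genotypes overlapped at 10 months and were widely apart at 16 months, and every 16-month library lay above every 10-month library. On 2 against 11 counts the 10-month ratio was 0.365, with an exact Clopper-Pearson 95% interval of 0.0393 to 1.67 that covers counting error only. Without the deeper 10-month control library the fitted log2 fold change at 10 months turned from -1.27 (SE 0.78) to 0.036, so a shared direction of Il9r at both ages rests on that library's 10 counts. The 16-month log2 fold change was -3.20 (SE 0.36), a 9.18-fold lower mean in the labelled transgenic group, and with age Il9r rose by 3.89 (SE 0.39, edgeR adjusted p = 8.81e-05). No 10-month library reached the count level that the filter asks for, so Il9r was tested only because it was high at 16 months, and its age test is no independent support for the rise.

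In the list of interleukin-9 signalling and common gamma chain receptors, 18 of 19 genes were tested, and Il9, the ligand, did not pass the filter. None passed between genotypes, and the medians were -0.13 at 10 months and -0.47 at 16 months. Il2rb, a receptor chain for interleukins 2 and 15, had 4.57, 21.6 and 24.3 against 2.18, 5.01 and 1.86 CPM at 16 months (log2 fold change -2.48, SE 0.59, edgeR adjusted p = 0.0935) and -0.24 (SE 0.75) at 10 months. Il2rg, the common gamma chain itself, was named after its values were seen and had -2.16 (SE 0.55, 0.109) at 16 months. Il4ra, a receptor chain for interleukins 4 and 13, had -0.999 (SE 0.26) at 16 months and -0.14 (SE 0.31) at 10 months. With age 8 of the 18 rose and 2 fell. The pair that fell held the downstream factor Stat3, by 1.04 on the log2 scale (SE 0.11, edgeR adjusted p = 0.000163), and the adaptor Irs2, by 2.14 (SE 0.23, 0.00019).

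Tox2 (chr2:163203125-163324170, plus strand) had 2.06 and 1.87 CPM in the control and 1.23 and 1.24 CPM in the labelled transgenic libraries at 10 months. At 16 months the control libraries had 3.31, 2.82 and 2.94 CPM and the labelled transgenic libraries 1.17, 1.5 and 1.68 CPM. All 5 labelled transgenic libraries lay below all 5 control libraries, the mirror image of Cdk18. The log2 fold change was -0.67 (SE 0.27) at 10 months and -1.06 (SE 0.21) at 16 months, where the control mean was 2.09-fold higher. Its age difference of 0.43 (SE 0.17) did not pass the test (edgeR adjusted p = 0.0745) and passed it under scaling by total count (0.68, adjusted p = 0.0183). The other TOX factors, 3 of 3 tested, did not pass between genotypes: Tox, known from exhausted T cells, had -0.24 (SE 0.19) and -0.33 (SE 0.15), and Tox4 -0.12 (SE 0.13) and 0.01 (SE 0.11). Tox4 fell by 0.66 on the log2 scale with age (SE 0.084, edgeR adjusted p = 0.000387).

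As a group, lymphocyte markers moved with Fcgbp and Il9r at 16 months, but not library by library. Control replicate 1 and labelled transgenic replicate 2 of 16 months had list means of 2.13 and 2.09 log2 CPM. In this pair Fcgbp stood at 8.67 and 3.22 CPM, and Il9r at 2.01 and 0.334 CPM. All 22 listed lymphocyte genes were tested, and Cr2 in 1 control library of 10 months was the only zero. Their summed share of counts at 10 months ran from 0.0014 to 0.00289% (control) and from 0.0024 to 0.00439% (labelled transgenic), and at 16 months from 0.0148 to 0.0736% (control) and from 0.00387 to 0.0113% (labelled transgenic). Their median genotype difference was 0.85 at 10 months and -2.80 at 16 months, with none past the test, and 20 of the 22 rose with age (median 3.31). Other immune lists and the proliferation list also had medians below 0 at 16 months, at -2.04 for germinal centre and follicular helper T cell genes, -2.61 for natural killer and cytotoxic genes, -1.06 for plasma cell genes, -0.66 for macrophage genes and -1.66 for proliferation genes, with none past the test. At 10 months, where Fcgbp, Il9r and Tox2 were below 0, the medians were 0.41, -0.30, 0.28, -0.04 and 1.04 in the same order.

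With the lymphocyte mean as a covariate the 16-month log2 fold change of Fcgbp was -1.71 (SE 0.41) in place of -2.7. That of Il9r was -2.49 (SE 0.49) in place of -3.20, and that of Tox2 -1.18 in place of -1.06. The covariate was itself apart between the genotypes at 16 months, at 2.13 to 4.45 (control) and 0.313 to 2.09 log2 CPM (labelled transgenic). The fit therefore separates lymphocyte content from genotype poorly. The part of immune cells in the differences was not tested. Over the 10 libraries, after the age means were subtracted, the list mean followed Fcgbp with Pearson's r of 0.83, Il9r with 0.82 and Tox2 with 0.52. The germinal centre and follicular helper T cell list followed them more closely, with 0.84, 0.88 and 0.67. These are descriptions in which points share library, depth and genotype differences.

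**Figure D3:**
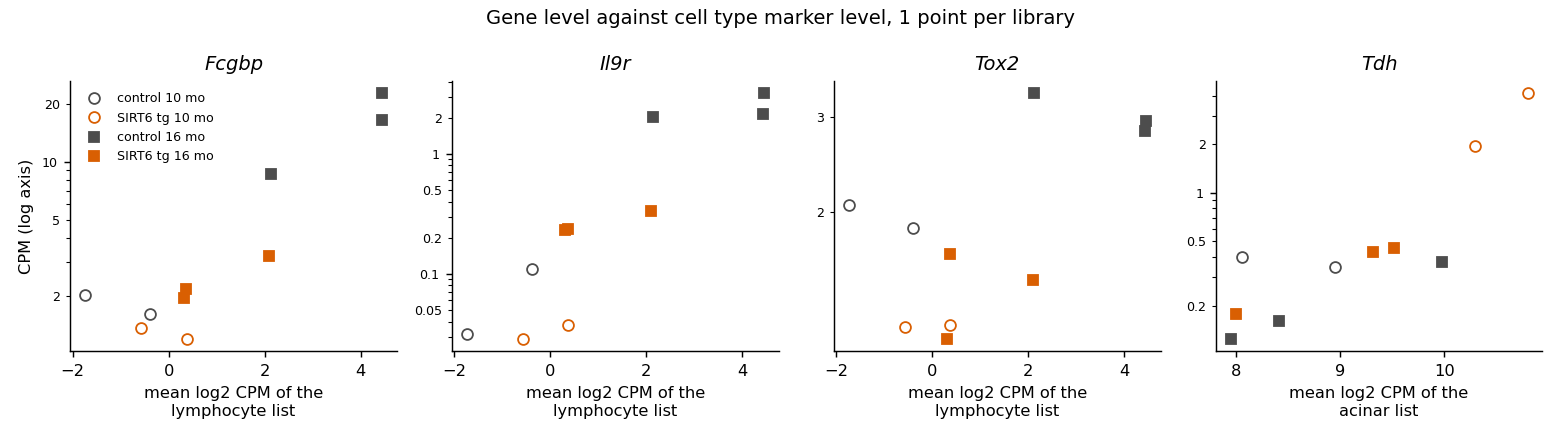
CPM (log axis) of Fcgbp, Il9r and Tox2 against the mean log2 CPM of the lymphocyte list, and of Tdh against that of the acinar list, 1 point per library (open circles, 10 months; filled squares, 16 months; grey, control; orange, labelled transgenic). The 3 control libraries of 16 months lie highest for Fcgbp, Il9r and Tox2, at lymphocyte means of 2.13 to 4.45, and the pair of highest Tdh values has the highest acinar means.

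Side by side, the genotype differences of the ages are described with no test, since the genes were chosen on them. A gap between the ages that is small beside its error does not show that the ages were alike. The 16-month value minus the 10-month value was near or under its standard error for Asb9 (-0.33, SE 0.47), Cdk18 (-0.20, SE 0.18), Noct (0.03, SE 0.16) and Tox2 (-0.40, SE 0.34). It was larger beside its error for Mdm1 (-0.39, SE 0.17), Tdh (-2.28, SE 0.80), Fcgbp (-2.22, SE 0.55) and Il9r (-1.92, SE 1.05). Tdh had its larger difference at the younger age, and Fcgbp and Il9r at the older. For Il9r the 10-month value rests on 2 against 11 counts. Scaling by total count moved the 10-month values to 0.47 for Mdm1, 0.32 for Cdk18 and 0.13 for Noct, while the median of all genes moved from -0.0059 to -0.25.

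**Figure D4:**
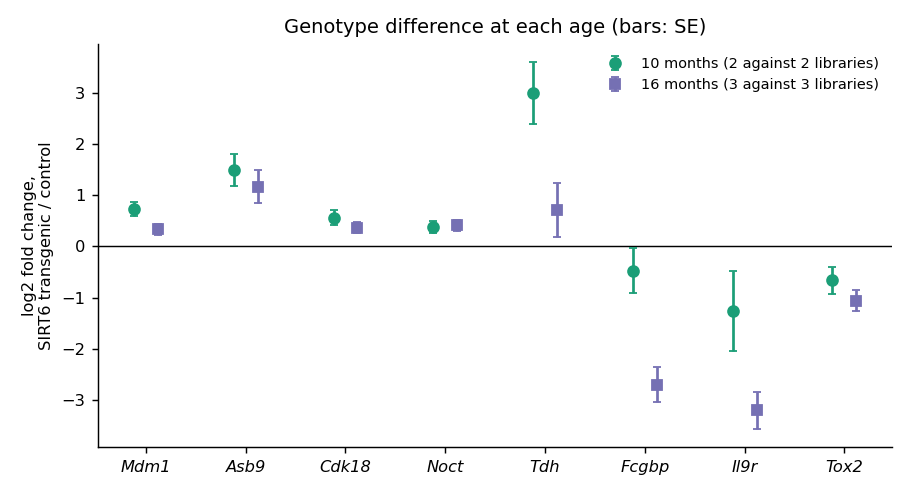
Log2 fold change of labelled SIRT6 transgenic over control at 10 months (circles, 2 against 2 libraries) and 16 months (squares, 3 against 3) for each gene, with SE as bars. Mdm1, Asb9, Cdk18, Noct and Tdh lie above 0 and Fcgbp, Il9r and Tox2 below it at both ages.

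Genotypes did not overlap at 10 months for 7 of the 8 genes, against 33.3% of all genes tested, and at 16 months for 7, against 17.8%. At both ages they were apart for 6 of the 8. Over all 19218 genes this held in 1 direction for 448 genes (2.33%), 218 with the labelled transgenic group higher (1.13%) and 230 with it lower (1.2%), and 642 genes (3.34%) were apart in opposite directions. The sign of the genotype difference was the same at both ages for 48.1% of all genes. Since the 8 genes were chosen on this contrast, nothing is read from their share.

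Between ages 6 of the 8 genes passed edgeR's test, against 37.6% of all genes. Mdm1, Asb9, Noct and Tdh were among the 18.3% of genes that fell, and Fcgbp and Il9r among the 19.3% that rose, Il9r having been tested only through its 16-month counts. In all 8 genes the age difference had the opposite sign to the averaged genotype difference: the 5 genes that were higher in the labelled transgenic libraries were lower at 16 months, and the 3 that were lower were higher. For Cdk18 this did not hold under scaling by total count. Opposite signs were common, at 65.8% of all genes and 84.6% (379) of the 448 genes whose genotypes did not overlap at both ages.

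**Figure D5:**
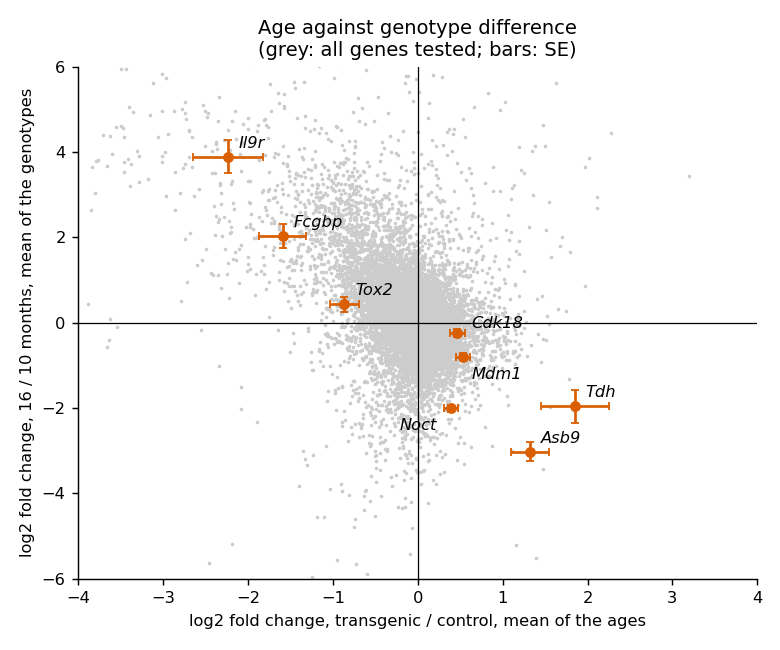
Log2 fold change between 16 and 10 months, averaged over the genotypes (y), against that between labelled transgenic and control, averaged over the ages (x), for all genes tested (grey; 57 lie outside the plotted range) and the 8 genes (orange, bars SE). The 8 genes lie in the upper left and lower right, where the signs are opposite.

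Per kilobase of exon the set spanned abundant to barely detected genes. Mdm1 averaged 17.5 RPKM (CPM divided by exon length in kilobases), above 89.7% of the genes tested, followed by Noct at 3.84 (60.4%) and Cdk18 at 3.72 (59.7%). Asb9 averaged 0.74 RPKM (28.9%), Fcgbp and Tox2 0.583 each (25.4%), Tdh 0.327 (17.7%) and Il9r 0.169 (10.3%). The 3 abundant genes also had little spread within groups, with standard deviations of log2 CPM above only 8.64%, 4.65% and 8.54% of genes for Mdm1, Noct and Cdk18. Tdh (86.7%), Fcgbp (77.1%) and Il9r (69.6%) varied more than most genes. A choice on the genotype difference can favour genes of little spread where that difference is small, so nothing is read from these shares.

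After removal of the age means, the genes whose pattern over the 10 libraries was most like each of the 8 differed between them. Prpf19, a splicing factor, and Oma1, a mitochondrial protease, followed Mdm1 (Pearson's r of 0.96 and 0.958), while Mpi, which makes mannose-6-phosphate, followed both Asb9 (0.958) and Cdk18 (0.954). Asb9 and Mdm1 were also close to each other (0.957). Snx14, a sorting nexin, and Six5, a homeobox factor, were nearest to Noct (0.956 and 0.954), Tmed6 and Bcat2, the mitochondrial branched-chain aminotransferase, to Tdh (0.975 and 0.97), and Lman2l to Cdk18 (0.952). Fcgbp was followed by AI504432 (0.987) and by Zap70, a kinase of T cell receptor signalling (0.98). Il9r was followed by Cd40, a receptor of antigen-presenting cells (0.954), and by Fcgbp (0.943), and Tox2 by Pgm2l1 (0.886) and Timeless (0.88). These values describe likeness over libraries that share depth and genotype differences, and the genes were picked as the highest of all.

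Of the 16 nearest tested protein-coding neighbours, 1 on each side of each gene, 5 had the sign of their neighbour at both ages. They were Rap1b beside Mdm1, Asb11 beside Asb9, Klhdc8a beside Cdk18, Slc7a11 beside Noct and Jph2 beside Tox2. For all of these but Asb11 both differences were smaller than their SE, so their signs say little. Rap1b and Slc7a11 lie 295776 and 780833 bp from their neighbours. None of the 16 passed edgeR's test between genotypes, and none had genotypes apart in 1 direction at both ages. Noct lies 1076 bp from Elf2, which had -0.11 (SE 0.12) and 0.05 (SE 0.095). Close to Il9r, Snrnp25 had 0.28 (SE 0.26) and -0.34 (SE 0.21). Beside Fcgbp, 9530053A07Rik had 0.16 (SE 0.50) and -1.72 (SE 0.49, edgeR adjusted p = 0.136 at 16 months). Annotated genes overlap Mdm1, Cdk18, Noct and Tdh, on the opposite strand except at Noct, with 2, 58, 147 and 10 counts over all libraries against 32650, 8087, 18578 and 306 in the genes themselves.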

How the data were processed

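Per the submitters' processing notes, the authors' tools were featureCounts 2.0.0, STAR 2.7.11a and Trim Galore 0.6.10, on mouse build GRCm38 (mm10), and the deposited values are raw gene counts. The strand setting of the counting is not given in the sources used here. Of 56262 identifiers, 55227 matched GENCODE symbols, and the unmatched ones held 0.00402% of counts. Genes were filtered with filterByExpr, scaled by TMM and tested with edgeR 4.0.16 (R 4.3.3; robust quasi-likelihood F test, 1 mean for each of 4 groups, all 10 libraries, Benjamini-Hochberg over 19218 genes, adjusted p under 0.05). DESeq2 1.42.0, limma-voom (limma 3.58.1), other scalings and filters, a replicate block, marker covariates and leaving out each library were alternatives. The fits were tested on simulated data. CPM were computed with TMM-scaled library sizes. RPKM use GENCODE exon length. A floor of 3 counts was 0.0326 to 0.113 CPM.

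The 8 genes, and the 18 cell type and 8 pathway lists, were chosen with earlier results of these data known. Named genes are the 8, Sirt6, the insulin genes, of each pathway list the 2 with the smallest averaged genotype p and up to 2 called between ages, each gene's nearest tested neighbours, and the 2 most correlated genes. At 16 months libraries with the same replicate number deviated together (residual correlations of 0.276, 0.242 and 0.186, against -0.241 to 0.00668 for other pairs), and at 10 months they did not (-0.0986). The labels give the numbers without saying what they share. The values of 1 gene of the clock list are not reported here.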

Additional observations from a re-analysis of the deposited data

How the results depend on the processing

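Genes called between genotypes, 0 under the design used, depended on the fit. At 10 months DESeq2 called 21 and a fit without a filter 6. At 16 months DESeq2 called 879, total count scaling 352, limma-voom 222, no filter 426, the replicate block 288, age fitted alone 1 and the acinar covariate 1. Averaged, DESeq2 called 43, no filter 11 and the acinar covariate 1. Leaving out 1 library gave 0 to 1895 at 10 months, 0 to 955 at 16 months and 0 to 933 averaged. The highest values came without labelled transgenic replicate 1 of 10 months (1895 and 933) and control replicate 1 of 16 months (955), and 4 genes at 16 months and 1 averaged were called without control replicate 3 of 16 months. Between ages leaving out 1 library gave 4887 to 7974 genes and 6 to 7 of the 8 genes. A stricter filter left 3 of the 8 called, because it removed Asb9, Tdh and Il9r from the test. Cdk18 passed without control replicate 2 of 10 months (-0.30, edgeR adjusted p = 0.0448) or labelled transgenic replicate 1 of 10 months (-0.29, 0.0368). Total count scaling turned the age difference of Cdk18 to 0.0045, split the age calls into 5804 higher and 1608 lower against 3702 and 3526, and moved the median of all genes by age to 0.28 and between genotypes at 10 months to -0.25. The 10-month value of Il9r turned to 0.036 without control replicate 2 of 10 months, and ranged from -1.67 to 0.036 over the libraries left out. The cause of these changes was not tested, apart from the smaller set of genes under the stricter filter. Of 462 values of the genotype differences under alternatives 438 moved by less than the SD within groups, and of 133 of the age difference 129 kept direction and side of the threshold. The replicate block kept 6 of the 8 genes called between ages, the same ones. Leaving out a 10-month library leaves 1 in its group, assumed to vary like the others. Depth limits Il9r at 10 months and Asb9 and Tdh at 16 months.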
